A study of Mus musculus with 32 samples.

Results

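H3K27me3 was compared between growing oocytes of wild-type mice (WT) and of PRC1 control mice (PRC1ctrl) at postnatal day 7 (P7). The comparison rests on 4 of the 32 CUT&Tag samples of the series, 2 per genotype, and on 2 peak lists, because the authors deposited 1 list per group. In CUT&Tag, an antibody against a histone mark tethers a transposase, which inserts sequencing adapters into the DNA nearby. The WT label names no allele. PRC1ctrl is labelled Ring1-/-; Rnf2F/+; Ddx4-Cre, so it lacked Ring1 throughout the animal, had 1 floxed and 1 normal allele of Rnf2, and carried a Cre transgene with the Ddx4 promoter, which is active in germ cells. By its label, PRC1ctrl differed from WT by 3 genetic changes, whose effects cannot be told apart here. Other H3K27me3 lists stood beside it: WT oocytes before birth (E18.5), at P1 and, non-growing, at P6, PRC1ctrl non-growing oocytes at P6, and the group PRC1cKO at P6 and P7. The PRC1cKO label reads Ring1-/-; Ring1F/-; Ddx4-Cre, with Ring1 in the place of Rnf2, so which gene was floxed there could not be settled. The PRC2 control (PRC2ctrl; EedF/+; Ddx4-Cre) and PRC2cKO (EedF/-; Ddx4-Cre) were non-growing oocytes at P6 with alleles of the PRC2 gene Eed. H2AK119ub was taken from WT at P6 and P7. All were primary oocytes from ovaries, and how many animals gave each sample is not stated in the labels.

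H3K27me3 is trimethylation of histone H3 at lysine 27. It is placed by Polycomb repressive complex 2 (PRC2) and accompanies silent chromatin, above all at genes of developmental regulators. Polycomb repressive complex 1 (PRC1) places the partner mark H2AK119ub through its catalytic subunits RING1 (gene Ring1) and RNF2 (also called RING1B, gene Rnf2), and each complex can recognise the mark of the other. In oocytes, H3K27me3 also carries a form of imprinting that passes to the embryo.

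The genes examined were the 21887 protein-coding genes of the RefSeq annotation of GRCm38.p6. A gene counted as marked if any H3K27me3 peak lay within 1 kb of either annotated gene end, by at least 1 bp. For the size of a difference, the length covered by peaks within 5 kb of the gene ends is given, which can reach 20 kb per gene. Because there was 1 list per genotype, no difference has a replicate check and no test was made. Intervals are exact Clopper-Pearson 95% intervals that cover counting error only, and neighbouring genes share peaks. In bulk oocytes, fewer cells with the mark and less mark per cell cannot be told apart.

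The promoters of 4 listed genes with large differences in covered length are shown first, as the sequences that peaks covered in 1 genotype or that lay beside such a peak. They are RefSeq sequences of GRCm38.p6 with 250 bases before and 50 after the annotated start, written 5′ to 3′ on the strand of the gene, with CpG dinucleotides in capitals. The Cdkn1a promoter (chr17:29090729-29091028, plus strand) and the Snai1 promoter (chr2:167537945-167538244, plus strand) lay inside WT peaks over all 300 bases and outside PRC1ctrl peaks. The Spaca4 promoter (chr7:45725767-45726066, minus strand) was covered over all 300 bases in PRC1ctrl and not at all in WT. The Grb10 promoter (chr11:12037371-12037670, minus strand) was covered in neither list, and its PRC1ctrl peak ended just upstream. These windows ranged from CpG-poor, with 2 CpG at Cdkn1a and 5 at Spaca4, to CpG-rich, with 34 at Snai1 and 45 at Grb10.
Cdkn1a: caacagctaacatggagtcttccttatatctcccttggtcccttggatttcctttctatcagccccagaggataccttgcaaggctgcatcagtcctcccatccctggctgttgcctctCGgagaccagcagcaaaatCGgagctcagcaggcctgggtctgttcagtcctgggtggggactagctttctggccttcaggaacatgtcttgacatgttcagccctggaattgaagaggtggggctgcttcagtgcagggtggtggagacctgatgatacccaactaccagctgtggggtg
Snai1: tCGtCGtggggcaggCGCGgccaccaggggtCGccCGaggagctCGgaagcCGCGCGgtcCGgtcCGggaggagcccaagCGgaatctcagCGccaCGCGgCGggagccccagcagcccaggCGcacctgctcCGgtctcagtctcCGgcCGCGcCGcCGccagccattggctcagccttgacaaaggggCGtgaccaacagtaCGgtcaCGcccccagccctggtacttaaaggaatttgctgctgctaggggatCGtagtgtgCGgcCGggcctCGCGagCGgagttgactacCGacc
Spaca4: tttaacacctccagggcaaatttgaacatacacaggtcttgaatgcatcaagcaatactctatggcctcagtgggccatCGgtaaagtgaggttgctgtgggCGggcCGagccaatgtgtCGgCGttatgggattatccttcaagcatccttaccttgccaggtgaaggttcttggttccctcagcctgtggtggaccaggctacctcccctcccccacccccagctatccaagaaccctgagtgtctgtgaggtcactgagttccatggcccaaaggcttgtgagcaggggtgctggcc
Grb10: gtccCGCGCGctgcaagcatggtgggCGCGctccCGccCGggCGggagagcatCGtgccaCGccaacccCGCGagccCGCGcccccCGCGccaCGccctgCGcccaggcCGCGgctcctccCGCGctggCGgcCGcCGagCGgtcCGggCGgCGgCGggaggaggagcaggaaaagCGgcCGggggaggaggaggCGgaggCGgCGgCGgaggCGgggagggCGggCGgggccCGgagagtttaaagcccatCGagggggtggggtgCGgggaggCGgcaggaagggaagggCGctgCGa

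At P7 the PRC1ctrl list covered less of the genome than the WT list with a nearly equal number of peaks. WT had 61049 peaks over 618.5 Mb and PRC1ctrl 61309 peaks over 491.4 Mb. PRC1ctrl peaks were narrower, with a median width of 4.31 kb against 5.88 kb, and broad domains of at least 50 kb numbered 711 in PRC1ctrl and 1177 in WT. Signal values in the lists are the authors' own and their scaling is not known. The lowest total signal of a listed peak was 14139 in WT and 7218 in PRC1ctrl, so the 2 lists did not start at the same height. The part of these differences in the gene results below was not tested, except by shortening the WT list to an equal covered length, which is given beside the counts.

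Peaks high in total signal nearly all overlapped a peak of the other genotype. The peaks found in 1 list alone were mostly the weak and narrow ones. Of the WT peaks, 77.8% (95% interval 77.5 to 78.2) overlapped a PRC1ctrl peak, and of the PRC1ctrl peaks 83.3% (83.0 to 83.6) overlapped a WT peak. In the lowest 10% of the WT list by total signal 41.2% were shared, while in the highest 10% only 4 peaks of 6104 were not. For PRC1ctrl the lowest 10% was shared at 49.9%, and 3 of 6130 peaks of the highest 10% were not. Unshared WT peaks had a median width of 4.18 kb against 7.17 kb for shared ones. Total signal is summed over the peak and rose with width. The median width in WT was 3.37 kb in the lowest 10% and 31.3 kb in the highest. Since 1 bp of overlap sufficed, wide peaks meet another peak more readily, and the rise with signal is partly built in. With at least 50% of the peak overlapped, 63.2% of WT and 79.4% of PRC1ctrl peaks were shared. All of the 1177 broad WT domains met a PRC1ctrl peak, and 8 of them were covered by PRC1ctrl peaks over less than 50% of their length.

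**Figure D1:**
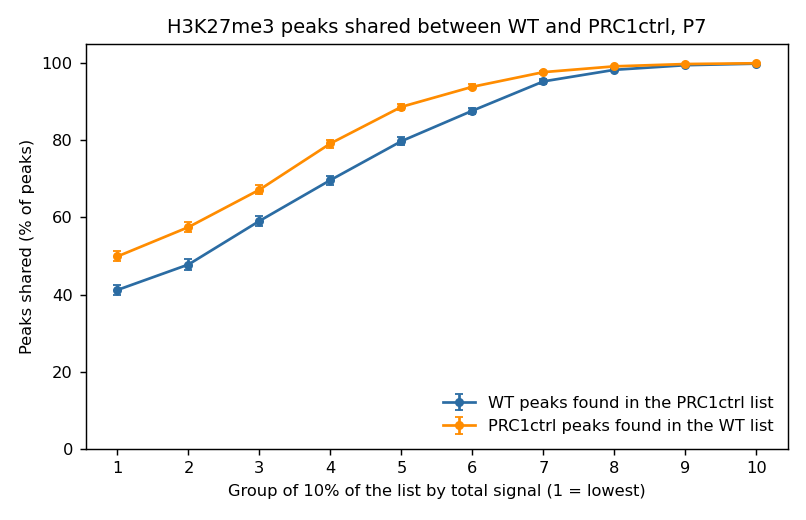
Share of H3K27me3 peaks that overlap a peak of the other genotype (y axis, percent of peaks) for each 10% of a list ranked by total signal (x axis, 1 is the lowest); bars are exact 95% intervals, which cover counting error only. Both lines climb from 41.2% and 49.9% in the lowest group to nearly all peaks in the highest, and the PRC1ctrl line lies above the WT line in the lower groups. Peaks with more total signal are also wider, so the climb is partly built in.

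The 2 lists had 420.7 Mb in common, 61.0% of the length that either covered, with 197.8 Mb in WT alone and 70.70 Mb in PRC1ctrl alone. The corresponding share was 60.3% for WT and PRC1ctrl at P6, and 66.7% for WT and PRC2ctrl at P6. Both P7 lists shared less with PRC1cKO at P7, 45.9% for WT and 46.0% for PRC1ctrl. The difference in covered length was spread over the genome. PRC1ctrl covered between 73.8% (chromosome 19) and 84.9% (chromosome 2) of the WT length on the 19 autosomes, with a median of 79.6%. The X chromosome lay below that range, with 13.8 Mb in PRC1ctrl and 20.3 Mb in WT, or 68.0%. At P6 the X chromosome value was 106%, and the autosomes ran from 79.1% to 129%. Length found in WT alone lay more than 5 kb from any gene body for 59.3% of it, compared with 53.8% of the whole WT list; for length in PRC1ctrl alone the value was 62.1%.

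At the level of genes, WT marked 10065 and PRC1ctrl 8678, with 8333 marked in both. There were 1732 genes marked in WT only, which is 7.91% of all genes and 17.2% (16.5 to 18.0) of the genes marked in WT. Genes marked in PRC1ctrl only numbered 345, which is 1.58% of all genes and 3.98% (3.57 to 4.41) of those marked in PRC1ctrl. Thus 5.02 genes were marked in WT only for each gene marked in PRC1ctrl only. The size of the surplus, and in 1 case its direction, depended on the covered length compared. With the WT list shortened from its weakest peaks to the PRC1ctrl length, 1034 genes were marked in WT only and 1131 in PRC1ctrl only. Because only the WT list was shortened, the 1034 are by construction among the 1732, and the 345 among the 1131. Shortened to the same length by mean signal, an alternative chosen after seeing the data, the WT list gave 1080 and 839. Between WT and PRC1ctrl at P6, 1069 genes were marked in WT only (4.88%) and 760 in PRC1ctrl only (3.47%), a ratio of 1.41. Between WT and PRC2ctrl at P6 the numbers were 783 (3.58%) and 615 (2.81%).

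Genes with little mark in WT made up most of the difference. Among genes with 4 to 6 kb covered in WT, 49.9% (726 of 1454) were unmarked in PRC1ctrl, and among those with 10 to 20 kb covered the share was 4.40% (250 of 5678). The reverse share, of genes marked in PRC1ctrl and unmarked in WT, went from 8.97% to 0.352% over the same bins. Of the WT-marked genes that WT had already marked at P6, 10.5% (849 of 8109) were unmarked in PRC1ctrl at P7. Of those that WT had not marked at P6, 45.1% (883 of 1956) were unmarked in PRC1ctrl. The WT P7 list defines both sets, so a gene near the threshold in that list enters the second set more readily.

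**Figure D2:**
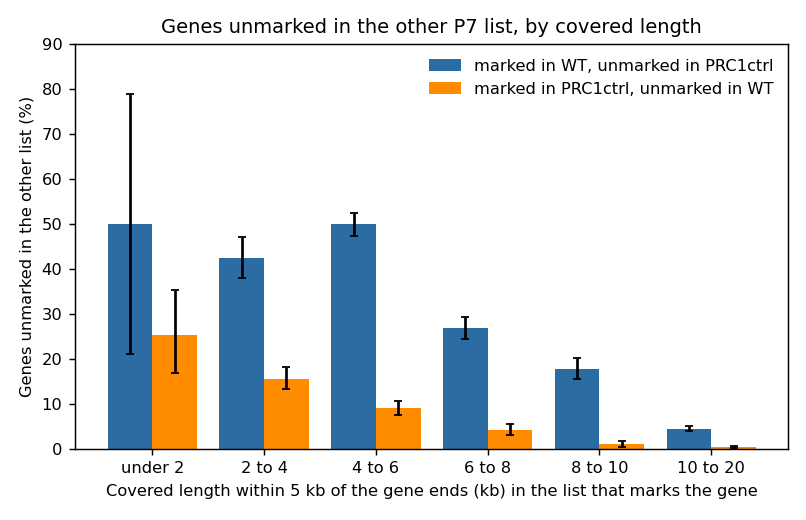
Share of marked genes that are unmarked in the other genotype (y axis, percent) by the length covered within 5 kb of the gene ends in the list that marks them (x axis, kb); bars are exact 95% intervals for counting error. WT-marked genes (blue) are unmarked in PRC1ctrl at 49.9% for 4 to 6 kb and 4.40% for 10 to 20 kb, and each PRC1ctrl bar (orange) is lower than its WT neighbour.

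H2AK119ub in WT at P7, measured in separate libraries, covered 53.5% (51.1 to 55.8) of the genes marked by H3K27me3 in WT only. It covered 24.1% (19.6 to 28.9) of those marked in PRC1ctrl only and 82.4% (81.6 to 83.2) of those marked in both, beside 45.6% of all genes. Genes with H3K27me3 in neither genotype had it at 18.4%. Both 1-sided gene classes were therefore poorer in the PRC1 mark than genes marked in both genotypes, beyond counting error. They also had less H3K27me3 in the list that marked them. WT-only genes had a median of 5.76 kb covered in WT, and genes marked in both had 11.9 kb. In PRC1ctrl, PRC1ctrl-only genes had 4.12 kb and genes marked in both 10.0 kb. H2AK119ub was taken from WT alone. The part of these points in the shares was not tested. The median of the promoter windows was 14.0 CpG for WT-only genes, 4.00 for PRC1ctrl-only genes and 13.0 for all genes with a window. A promoter sequence was at hand for 82.7% of the WT-only and 80.8% of the PRC1ctrl-only genes outside chromosome 18, and for 79.3% of the genes marked in both, which is under the share required here for a value.

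Core developmental genes were marked in both genotypes. All 39 genes of the Hox clusters, which pattern the body axis, were marked in WT and in PRC1ctrl, with a median of 13.7 and 13.4 kb covered. Of 176 developmental transcription factors, 173 were marked in WT and 168 in PRC1ctrl, and the 5 marked in WT only (2.89% of the 173, beside 17.2% for all genes) were Nr5a2, Neurog3, Foxc1, Snai1 and Isl2. Of 98 developmental signalling genes, 88 were marked in WT and 85 in PRC1ctrl, the difference being Gdf11, Fgf8 and Fgf21; with the WT list shortened by mean signal, 2 more genes were marked in PRC1ctrl than in WT. With windows of 5 kb all 3 of these genes were marked in both genotypes. Peaks covered the whole 20.0 kb in both genotypes at 37 listed genes. Among these were Emx1 and Gata5, transcription factors of forebrain and of heart and gut, Cyp26b1, which degrades retinoic acid, and Cacna1g, a calcium channel subunit. Ccna1, Chrna2 and Gdf10 were also covered throughout.

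Several developmental regulators covered over 9.09 to 12.7 kb in WT had little or no covered length in PRC1ctrl. Snai1, a repressor that drives epithelial cells to become mesenchymal (chromosome 2, 167538195 to 167542814), had 11.7 kb covered in WT at P7 and 0.168 kb in PRC1ctrl. It had 14.6 kb in both genotypes at P6 and 13.9 kb in PRC1cKO at P7, so the PRC1ctrl P7 list alone was low. Neurog3, the factor of endocrine precursor cells in the pancreas, had 9.33 kb in WT and none in PRC1ctrl, with 10.7 and 10.9 kb at P6 and 11.7 kb in PRC1cKO. Isl2, a LIM-homeodomain factor of motor neurons, followed with 9.09 kb in WT, none in PRC1ctrl and 14.5 kb in PRC1cKO. Neurog3 and Isl2 were marked in neither genotype once the WT list was shortened by mean signal. Fgf8, a secreted growth factor of early patterning, had 12.7 kb in WT and 2.34 kb in PRC1ctrl, beside 13.6 kb in PRC1cKO. The same shape was seen at Cacna1i, a neuronal calcium channel subunit, with 8.53 kb in WT, none in PRC1ctrl and 12.9 kb in PRC1cKO.

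**Figure D3:**
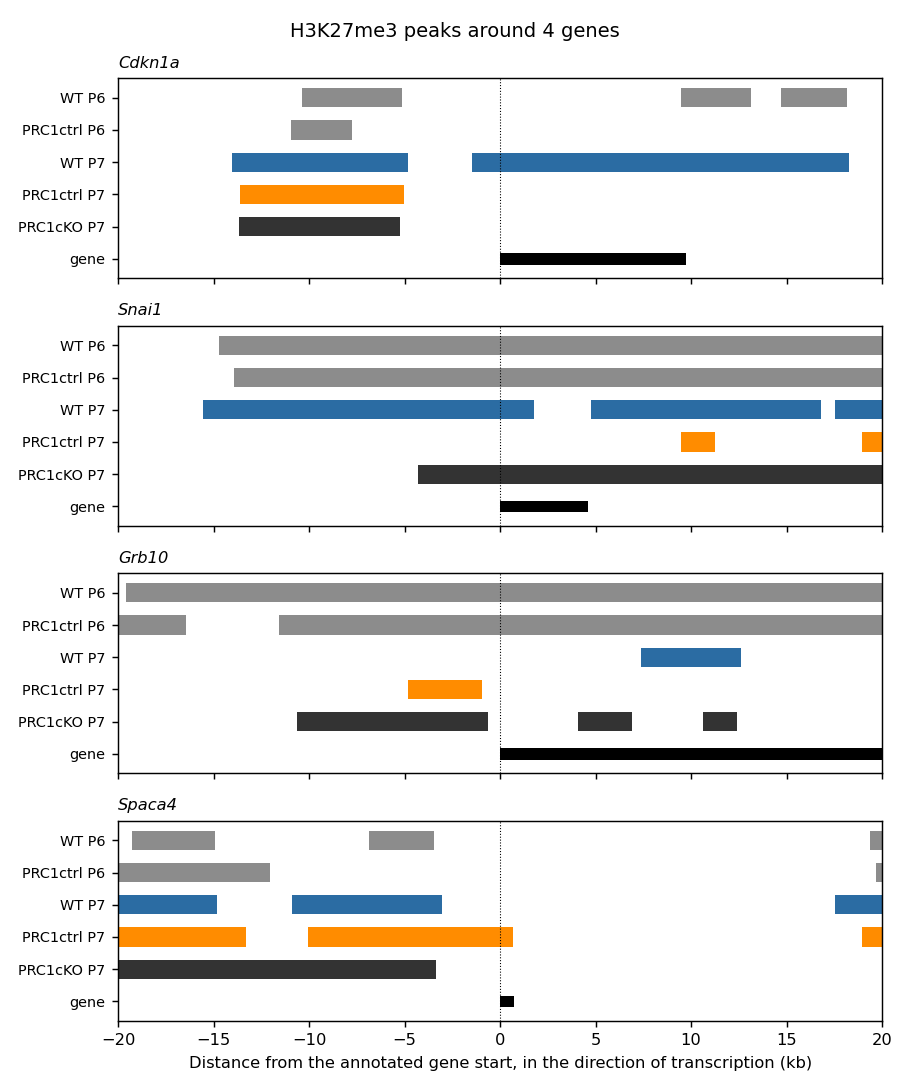
H3K27me3 peaks (bars) in 5 lists around 4 genes, by distance from the annotated gene start in the direction of transcription (x axis, kb); the black bar is the gene, drawn to at most 20 kb. At Snai1 the PRC1ctrl P7 list has only short peaks downstream while the other lists span the start, at Cdkn1a only WT P7 covers the gene start, at Grb10 PRC1ctrl has a peak upstream where WT P7 has none, and at Spaca4 the PRC1ctrl P7 peak alone reaches the gene.

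Snai1 was one of a larger set. Of the 5624 genes marked in all 9 other H3K27me3 lists of the series, PRC1ctrl at P7 lacked 329, or 5.85%, and 131 of these had no peak within 5 kb. The WT P7 list stood apart in the other direction, with 539 genes that it alone marked, while the other lists had at most 156. These 539 are by definition among the 1732. For missing genes, each of the other lists was examined in the same way, and their values ran from 0.0943% (WT at P6) to 3.76% (PRC2cKO at P6). WT at P7 lacked 47 genes (0.880%) and PRC1cKO at P7 lacked 177 (3.23%). Covered length was 428.2 Mb in PRC2cKO at P6 (207 genes lacking), 463.0 Mb in PRC1cKO at P7 and 474.1 Mb in WT at E18.5 (122 genes). The part of covered length in these numbers was not tested. The 329 genes had a median of 10.0 kb covered at P6 in both WT and PRC1ctrl, 7.18 kb in WT at P7, 7.42 kb in PRC1cKO and, as their selection requires, little in PRC1ctrl at P7 (1.40 kb). The 5295 genes marked in all 10 lists had 13.5 kb in WT at P7 and 11.4 kb in PRC1ctrl. In the shortened WT list 221 of the 329 were still marked. H2AK119ub marked 89.1% (85.2 to 92.2) of them in WT at P6 and 58.7% (53.1 to 64.0) at P7, against 97.4% and 88.1% of the genes marked in all lists.

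Of the 329, 19 belonged to the gene lists used here, and they were picked out after their values were seen. Dio3, the imprinted deiodinase that inactivates thyroid hormone, had 11.4 kb in WT and 0.839 kb in PRC1ctrl at P7, with 11.9 kb in both genotypes at P6. Slc6a4, the serotonin transporter, had 5.45 kb in WT and none in PRC1ctrl, beside 13.1 kb in PRC1cKO. Pcgf1, which defines a variant form of PRC1, had 5.99 kb in WT and 0.832 kb in PRC1ctrl, beside 10.3 kb in PRC1cKO. Gm4340, from the family of early zygotic transcripts, had 9.85 kb in WT and none in PRC1ctrl, beside 7.43 kb in PRC1cKO. The others were Snai1, Neurog3, Fgf8, Fgf21, Gdf11, Cacna1i, Grin3b, Grm5, Cbx2, Cbx7, Cbx8, Amh, Akap4, Tcstv3 and Upk3b. Cbx2 and Cbx8 lie next to each other on chromosome 11 and are not separate evidence.

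Genes of PRC1 itself were often marked in WT only, at 55.6% of the WT-marked genes beside 17.2% over all genes. Of 42 PRC1 subunit genes, 18 were marked in WT and 8 in PRC1ctrl at P7, 10 in WT only and none in PRC1ctrl only. At P6 the order was the other way, with 11 marked in WT and 13 in PRC1ctrl, and PRC1cKO at P7 had 9. WT had already marked 10 of the 18 at P6. Of these, 4 were unmarked in PRC1ctrl at P7 (12.2% to 73.8%), beside 10.5% of all such genes. Of the other 8, 6 were (34.9% to 96.8%), an interval that holds the 45.1% of all such genes. The median length covered over the 18 genes was 7.21 kb in WT and 3.55 kb in PRC1ctrl, compared with 10.6 and 8.48 kb over all WT-marked genes. With the shortened WT list, 6 of the genes were marked in WT only and PRC1ctrl had 5 fewer marked than WT, and from gene starts alone 5 were. At Cbx2, Dcaf7, Hdac1 and Yaf2 the WT peak covered less than 500 bp of the 1 kb windows. With windows of 5 kb 7 of the 10 WT-only genes were marked in both genotypes. Other members then became WT only, so that 7 genes of the list were in WT only. With gene bodies 11 were.

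Among the chromobox genes, whose products read H3K27me3 in canonical PRC1, Cbx8 had 11.3 kb in WT and 3.11 kb in PRC1ctrl. Cbx7 had 10.1 kb in WT and 5.68 kb in PRC1ctrl, Cbx2 6.08 and 3.85 kb, and Cbx6 6.52 and 2.37 kb. At all of these PRC1ctrl kept some covered length within 5 kb, away from the 1 kb around the gene ends. Rybp and Yaf2, whose products belong to variant PRC1, had 5.24 and 4.28 kb in WT and none in PRC1ctrl. E2f6, a repressor in a variant complex, had 5.32 kb in WT and 1.21 kb in PRC1ctrl, and none in either genotype at P6. Hdac1, a histone deacetylase, had 4.39 and 3.24 kb, and Dcaf7 had 2.54 kb in WT and none in PRC1ctrl. Of 26 PRC2 subunits and partners, 5 were marked in WT and 4 in PRC1ctrl, the difference being Lcor with 8.24 and 3.18 kb. Ring1, Rnf2 and Eed, the genes of the engineered alleles, had no H3K27me3 within 5 kb in either genotype, which does not check the deletions. Ddx4, whose promoter drives the Cre, had 3.20 kb in WT and 3.77 kb in PRC1ctrl. In the 5 Mb on each side, PRC1ctrl covered 80.0% of the WT length at Ring1 and 75.5% at Rnf2. In 1 Mb on each side it covered 79.0% at Ring1 and 70.6% at Rnf2. At Eed, which the PRC1ctrl label does not name, it covered 77.7% in 1 Mb and 75.1% in 5 Mb. At Ddx4 the values were 76.7% and 84.6%. The range over whole autosomes is no measure for windows this short, and a local difference at the targeted genes was not tested.

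**Figure D4:**
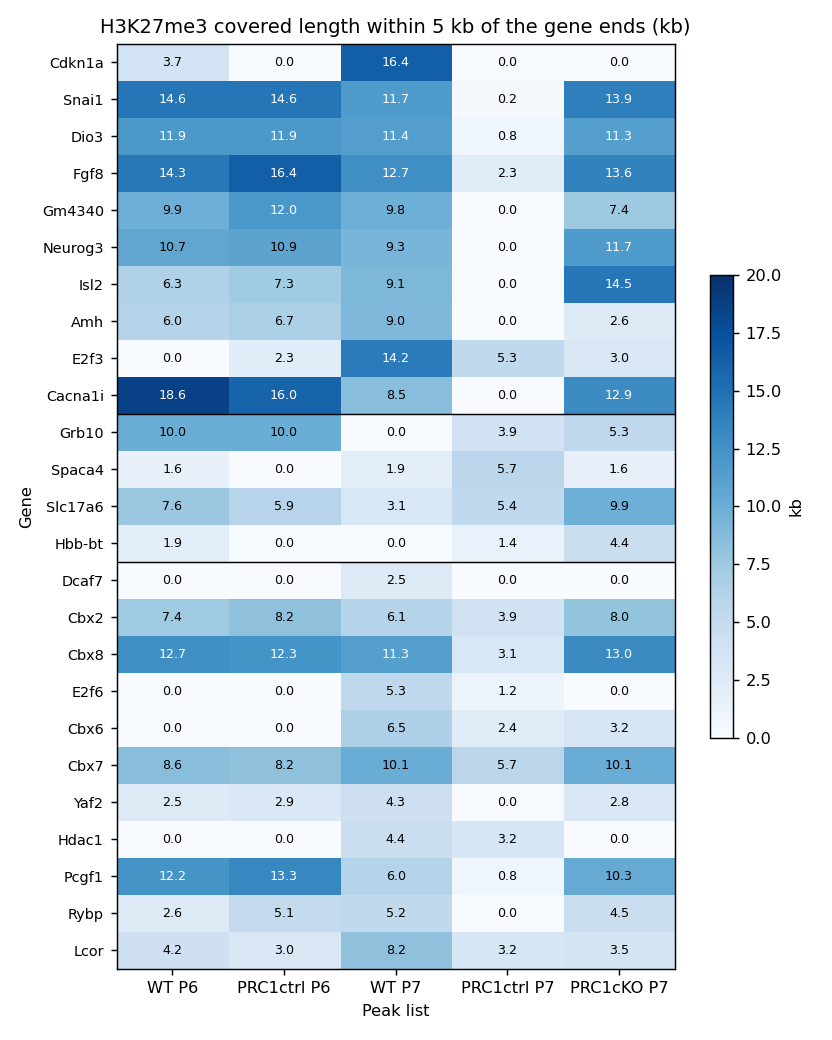
Length covered by H3K27me3 peaks within 5 kb of the gene ends (kb, printed in each cell and shaded from 0 to 20) for single genes (rows) in 5 lists (columns). The upper block holds 10 listed genes marked in WT only at P7, the middle block 4 marked in PRC1ctrl only, and the lower block the PRC1 and PRC2 genes marked in WT only. From Snai1 to Isl2 and at Cacna1i the PRC1ctrl P7 column is pale while the other 4 columns are mostly darker, and at Cdkn1a only the WT P7 column is dark.

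Other WT-only genes had little or no covered length in WT at P6. Cdkn1a, which encodes the cell cycle inhibitor p21 (chromosome 17, 29090979 to 29100722), had 16.4 kb covered in WT at P7 and none in PRC1ctrl or PRC1cKO. At P6 it had 3.69 kb in WT and none in PRC1ctrl. E2f3, an E2F factor of the cell cycle that the list of H3K27me3-dependent imprinted genes holds, had 14.2 kb in WT and 5.27 kb in PRC1ctrl, with 3.00 kb in PRC1cKO. Dppa3, whose product protects maternal DNA methylation in the zygote, had 8.03 kb in WT at P7, none in PRC1ctrl and none in either genotype at P6.

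Replication-dependent histone genes were marked in growing rather than non-growing WT oocytes, and PRC1ctrl at P7 lay between WT and PRC1cKO. Of 62 such genes, which supply histones during DNA replication and lie in clusters, WT marked 2 at P6 and 29 at P7. PRC1ctrl marked 20 at P7, and PRC1cKO none. Of the 29 genes, 31.0% were unmarked in PRC1ctrl, beside 17.2% over all genes, and of the 27 that WT had not marked at P6 33.3% (16.5 to 54.0) were, beside 45.1%. The 9 genes in WT only all lay on chromosome 13, where neighbours can share a peak: H2ac7, H2ac13, H2bc3, H2bc13, H3c3, H3c4, H3c10, H3c11 and H4c11. H3c11 had 9.33 kb covered in WT and 4.36 kb in PRC1ctrl, and H2ac13 6.92 and 1.93 kb. The median over the 29 genes was 6.50 kb in WT and 3.19 kb in PRC1ctrl, and with the shortened WT list 6 fewer genes were marked in PRC1ctrl than in WT. With windows of 5 kb the difference was 2 genes.

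Lists of germline genes, like most lists here, had fewer marked members in PRC1ctrl than in WT. The share of WT-marked genes that were unmarked in PRC1ctrl was 31.6% for meiotic prophase, 45.5% for DNA methylation and imprint protection and 21.7% for germline identity and piRNA, beside 17.2% over all genes. Of 50 meiotic prophase genes, 19 were marked in WT, 13 in PRC1ctrl and 11 in PRC1cKO, and the 6 in WT only were Ankrd31, Iho1, Msh5, Prdm9, Shoc1 and Sycp1. Prdm9, which places recombination hotspots, had 6.32 kb in WT and 2 bp in PRC1ctrl, and Sycp1, of the synaptonemal complex, 4.74 kb and none. None of the 9 meiotic genes that WT already marked at P6 was unmarked in PRC1ctrl (interval 0% to 33.6%), and 6 of the 10 others were (26.2% to 87.8%). These intervals hold the values over all genes, 10.5% and 45.1%. The same was true of the other 2 lists. Among genes not marked in WT at P6, 4 of 7 of DNA methylation and imprint protection (18.4% to 90.1%) were unmarked in PRC1ctrl. For germline identity and piRNA it was 5 of 8 (24.5% to 91.5%). Among genes marked in WT at P6, the numbers were 1 of 4 (0.631% to 80.6%) and 0 of 15 (0% to 21.8%). With the shortened WT list 4 meiotic genes stayed in WT only, and PRC1ctrl had 1 fewer marked than WT. Of 31 genes of DNA methylation and imprint protection, 11 were marked in WT and 6 in PRC1ctrl, and the 5 in WT only were Tdg, Nsd1, Uhrf2, Cxxc4 and Dppa3. Nsd1, a histone H3K36 methyltransferase, had 8.21 kb in WT and none in PRC1ctrl. Of 47 germline identity and piRNA genes, 23 were marked in WT and 18 in PRC1ctrl, and the difference was Mael, Prdm1, Dppa4, Pou5f1 and Dppa3; with the shortened WT list PRC1ctrl had 2 fewer marked than WT.

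Oocyte genes were mostly unmarked, while over all genes 46.0% were marked in WT and 39.6% in PRC1ctrl. Of 58 genes of oocyte growth and maternal effect, 6 (10.3%) were marked in WT and 3 in PRC1ctrl. Npm2, Oas1d and Dppa3 made the difference. Thus 3 of the 6 WT-marked genes were unmarked in PRC1ctrl, beside 17.2% over all genes. Of the 4 that WT marked at P6, 1 was unmarked (0.631% to 80.6%), and both others were (15.8% to 100%). These intervals hold the values over all genes, 10.5% and 45.1%. Among 30 oocyte transcription factors and dormancy genes, 6 were marked in WT and 5 in PRC1ctrl. The difference was Amh, 16.7% of the WT-marked genes. With WT shortened by mean signal 1 more was marked in PRC1ctrl than in WT. Of 36 early zygotic genes, 17 (47.2%) were marked in WT and 12 in PRC1ctrl. Gm4340, Tcstv3, Dppa4, Zfp352 and Usp17ld were in WT only, or 29.4% of the WT-marked genes, beside 17.2% over all genes. With the shortened WT list, however, 2 more genes were marked in PRC1ctrl than in WT.

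Imprinted genes differed little in the number marked. Of 34 genes known for H3K27me3-dependent imprinting, WT marked 32 and PRC1ctrl 31. Thus 3.12% of the WT-marked genes were unmarked in PRC1ctrl, beside 17.2% over all genes. PRC1cKO marked 20 of the 34. Covered length did differ, with a median over the 32 genes of 16.8 kb in WT and 13.3 kb in PRC1ctrl. Over all WT-marked genes it was 10.6 and 8.48 kb. Of 56 canonical imprinted genes, 31 were marked in WT and 30 in PRC1ctrl. Dio3 and Asb4 were in WT only and Grb10 in PRC1ctrl only, and from gene starts alone 1 more was marked in PRC1ctrl than in WT.

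**Figure D5:**
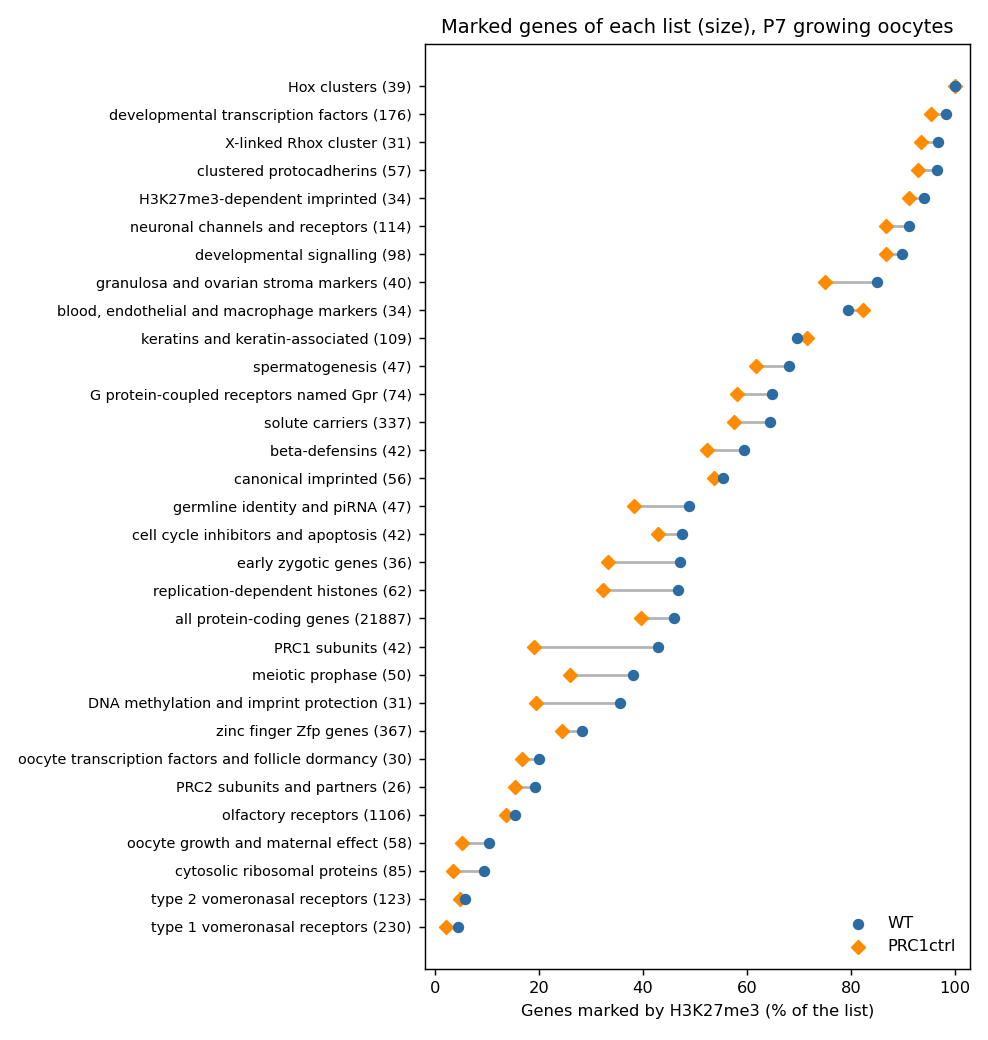
Share of each gene list marked by H3K27me3 at P7 (x axis, percent of the genes of the list; list size in parentheses) in WT (blue circles) and PRC1ctrl (orange diamonds). PRC1ctrl lies left of WT in most lists, farthest for PRC1 subunits (18 of 42 against 8 of 42), at the same place for the Hox clusters, and right of WT for keratins and for blood, endothelial and macrophage markers.

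In the lists of single gene symbols, only Grb10, Slc17a6, Spaca4 and Hbb-bt were marked in PRC1ctrl only, beside 1.58% of all genes. The families matched by name held more, such as 31 olfactory receptors (2.80% of that family). Grb10, an imprinted inhibitor of growth factor signalling (chromosome 11, 11930499 to 12037428), had 3.90 kb covered in PRC1ctrl and none in WT at P7. It had 10.0 kb in both genotypes at P6 and 5.33 kb in PRC1cKO, so near the gene ends WT at P7 was the low list. Grb10 was 1 of the 47 genes lacking there alone. The call rested on 0.066 kb of a weak PRC1ctrl peak within the 1 kb windows. It ended when at least 500 bp had to be covered. Over the gene body and 1 kb, Grb10 was marked in both genotypes, with a difference, PRC1ctrl minus WT, of -5.16 kb. Slc17a6, a glutamate transporter of neurons, had 5.38 kb in PRC1ctrl and 3.06 kb in WT, with 7.62 kb in WT at P6. Spaca4, of the sperm acrosome membrane, had 5.65 kb in PRC1ctrl and 1.95 kb in WT, and Hbb-bt, a beta-globin gene, 1.39 kb and none. Outside the lists the largest differences of this direction were at Gm30733 (18.9 kb in PRC1ctrl, 0.396 kb in WT), 4930562C15Rik (14.8 and 2.05 kb), Gm3476 (14.1 kb and none), Gm6337 (11.4 kb and none) and Gm40892 (10.2 kb and none). Gm3476 and Gm6337 lie near each other on chromosome 14 among predicted genes that resemble one another, and the part of mapping to similar copies was not tested.

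Outside the lists, the largest differences of the other direction were at Gal3st2b, a sulfotransferase gene, with 20.0 kb in WT and none in PRC1ctrl, and Tpm2, a muscle tropomyosin, with 19116 bp and none. Gm13305 had 18.8 kb and none, Aspg, an asparaginase gene, 16.4 kb and none, and Cd300ld5 16.3 kb and none. Tpm2 and Aspg had 19.8 and 20.0 kb in PRC1ctrl at P6 and 16.2 and 9.28 kb in PRC1cKO at P7. Gal3st2b and Gm13305 had none in PRC1ctrl at P6 or in PRC1cKO at P7. They differed in PRC2ctrl at P6, where Gm13305 had 19.8 kb and Gal3st2b none.

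Of the WT-marked genes in the tissue and family lists that follow, 0% to 12.5% were unmarked in PRC1ctrl, beside 17.2% over all genes, except for cytosolic ribosomal proteins with 62.5% (5 of 8). Of 114 neuronal channel and receptor genes, 104 were marked in WT and 99 in PRC1ctrl, 6 in WT only and 1 in PRC1ctrl only; with the shortened WT list 5 more were marked in PRC1ctrl than in WT. Of 34 blood, endothelial and macrophage markers, 27 and 28 were marked, and of 109 keratin and keratin-associated genes 76 and 78, a surplus of 11 in PRC1ctrl with the shortened WT list. Of 42 cell cycle inhibitors and apoptosis genes, 20 and 18 were marked, with Cdkn1a and Bid in WT only, and with the shortened WT list the numbers were equal. Among 47 spermatogenesis genes, 32 and 29 were marked, with Akap4, Spaca1, Tssk3 and Tssk4 in WT only and Spaca4 in PRC1ctrl only; from gene starts alone 1 more, and with the shortened WT list 2 more, were marked in PRC1ctrl than in WT. Solute carriers, a family of 337 membrane transporters, had 217 marked in WT and 194 in PRC1ctrl, and the G protein-coupled receptors named Gpr, 74 genes, 48 and 43; with the shortened WT list each family had 1 fewer marked in PRC1ctrl than in WT. Of 85 cytosolic ribosomal protein genes, 8 were marked in WT and 3 in PRC1ctrl, namely without Rpl22, Rpl26, Rpl7l1, Rps15 and Rps3; the difference was 3 genes with the shortened WT list and 13 with windows of 5 kb.

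In several gene families the direction depended on which WT peaks were kept. Olfactory receptors, 1106 genes, had 169 marked in WT and 151 in PRC1ctrl, with 49 in WT only and 31 in PRC1ctrl only; with the WT list shortened by total signal 59 more, and by mean signal 36 more, were marked in PRC1ctrl than in WT. Of 367 Zfp zinc finger genes 104 and 90 were marked, and with the lists shortened in these ways 13 and 7 more in PRC1ctrl than in WT. Clustered protocadherins (55 and 53 of 57), beta-defensins (25 and 22 of 42), the Rhox cluster (30 and 29 of 31) and the vomeronasal receptors of type 1 (10 and 5 of 230) and type 2 (7 and 6 of 123) also had more marked in PRC1ctrl with the list shortened by total signal. By mean signal this held for the beta-defensins (1 more) and the type 2 receptors (3 more), while protocadherins and Rhox stayed at 1 fewer in PRC1ctrl and the type 1 receptors were equal in number.

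The oocyte label was checked against marker genes, as far as a repressive mark allows. Of 12 oocyte markers, 2 were marked in WT (Npm2 and Lhx8) and 1 in PRC1ctrl (Lhx8). Of 11 granulosa cell markers, all were marked in WT and 10 in PRC1ctrl, the difference being Amh, which had 9.00 kb in WT and none in PRC1ctrl. Markers of endothelium and blood (5 of 8) and of stroma (5 of 6) were marked equally in number in both genotypes. Over all genes 46.0% were marked in WT and 39.6% in PRC1ctrl. Of 40 granulosa and ovarian stroma genes, 34 were marked in WT and 30 in PRC1ctrl, with Nr5a2, Amh, Esr2 and Upk3b in WT only. These 4 were 11.8% of the 34, beside 17.2% over all genes. Amh and Esr2 are active in granulosa cells. Any part of such cells in these differences was not tested.

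By region, 21.8% of 37982 WT regions, made by joining peaks at most 5 kb apart, met no PRC1ctrl peak, and 17.3% of 43208 PRC1ctrl regions met no WT peak. These private regions were short, with a median of 4.23 kb in WT and 2.82 kb in PRC1ctrl. The longest WT-only region, 36.0 kb at chr5:142211228-142247229, lay in Sdk1, a gene of synaptic cell adhesion, with no peak at P6 in either genotype. The next in order lay at predicted genes Gm21154, Gm21162 and Gm5799 (35.1 kb) and Gm21154 and Gm8138 (34.5 kb) on chromosome 14, 9.91 kb from Usp25 (34.0 kb) and in Sorcs2, a neuronal sorting receptor (33.7 kb). In PRC1ctrl the longest private regions were 30.3 kb at Gm21319 and 25.4 kb near Mup21. The next were 25.3 kb at Ccl21a, a chemokine gene, 25.2 kb at a distance of 152 kb from Nr5a2 and 23.1 kb near Enox2 on the X chromosome.

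In bins of 100 kb, PRC1ctrl covered less than WT in 79.0% of the 20728 bins with a peak, with a median difference of -4.69 kb. In 7 bins PRC1ctrl was lower by at least 50 kb, and in none was it higher by that much. The largest decrease was near Mtcl1 on chromosome 17, with 94.3 kb in WT and 30.3 kb in PRC1ctrl; at P6 the genotypes had 87.3 and 86.7 kb there. Near Chic2 the values were 82.6 and 23.9 kb, in the bin of Slco4a1 and Ntsr1 84.7 and 29.0 kb, at Atxn7l1 77.0 and 19.3 kb and near Asmt on the X chromosome 61.1 and 7.54 kb. The largest increase lay in a bin near Nr5a2, and its neighbour was also among the largest, with 8.78 kb in WT and 50.6 kb in PRC1ctrl for the first and 6.00 and 40.6 kb for the second. There WT at P6 had 39.9 and 21.7 kb and PRC1cKO at P7 had 56.6 and 34.0 kb, so again WT at P7 was the low list. The gene Nr5a2 itself, marked in WT only, had 8.96 kb in WT and 6.72 kb in PRC1ctrl. Ptprn2 (18.3 and 57.9 kb), Dnah8 (38.6 and 73.0 kb) and Gm3476 (14.6 and 48.4 kb) held the other large increases.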

How the data were processed

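H3K27me3 peak lists of WT and PRC1ctrl growing oocytes were compared, and 10 further lists of the series served as reference. The authors deposited 1 list per group without a header. The submitters' processing notes name SAMtools, deepTools, Bowtie2, Picard 3.0.0 and Trim Galore 0.6.10, and the builds GRCm38, mm10 and dm6. Fly S2 cells served as a spike-in at a fixed ratio (2000 to 1000 oocytes as the example), and reads had 150 bp, per the labels. How 2 samples became 1 list, the peak caller, its threshold and any scaling by S2 reads were not given in the sources used here. Column 4 of the deposited lists holds the signal summed over each peak, judged from the values, and served only to describe, rank or filter peaks. Read depth is unknown.

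Peaks on the 19 autosomes, X and Y were kept, with positions taken as GRCm38. Shared peaks had at least 1 bp in common. Gene windows reached 1 kb, or for covered length 5 kb, to each side of both gene ends, since the annotation table gives no strand. Of 1030 listed symbols in 18 lists, 1000 were in the annotation, and 12 families were matched by name. The members and lists were chosen with earlier results of these data known. Named genes were the 10 listed and 5 other genes per direction with the largest difference in covered length that kept the call at equal covered length, at most 3 per list, the genes of the alleles, all Polycomb genes that differed, and the 8 with the largest common length, of which 1 is not reported here; members are also named where 5 or fewer of a list differed, and further examples were chosen after their values were seen. Python 3.11.15, numpy 2.4.6, pandas 2.3.3 and scipy 1.17.1 were used, matplotlib 3.10.9 drew the figures, and the overlap code was tested on simulated peaks. Alternatives were wider windows, at least 500 bp covered, the gene body, the gene start alone, equal peak numbers, equal covered length by total or by mean signal, and the upper 75% of peaks.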

Additional observations from a re-analysis of the deposited data

Results flagged for a closer look

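For 13 gene lists the number of genes marked in PRC1ctrl minus that in WT had opposite signs at P7 and P6; the difference between the stages was not tested. In 11 lists the P7 value was negative and the P6 value positive. It was -10 at P7 and 2 at P6 for PRC1 subunits, -9 and 4 for replication-dependent histones, -6 and 1 for meiotic prophase genes and -5 and 3 for neuronal channels and receptors. For solute carriers it was -23 and 4, for Gpr receptors -5 and 1 and for cytosolic ribosomal proteins -5 and 1. Cell cycle inhibitors and apoptosis genes had -2 and 2, H3K27me3-dependent imprinted genes -1 and 4, canonical imprinted genes -1 and 3, and oocyte transcription factors -1 and 2. The reverse held for blood, endothelial and macrophage markers, with 1 at P7 and -3 at P6, and for keratins, with 2 and -7. Over all genes the value was -1387 at P7 and -309 at P6. The P7 sign of neuronal channels turned at equal covered length, that of canonical imprinted genes from gene starts alone and that of oocyte transcription factors at equal covered length by mean signal.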

How the results depend on the processing

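No paired analysis was possible because 1 pooled list per group carries no replicate, and for the same reason no replicate could be left out. With wider windows (1738 and 465), at least 500 bp (1716 and 330), gene bodies (1478 and 339), gene starts (1294 and 278), equal peak numbers (1735 and 341) or the upper 75% of peaks (1681 and 358), the counts of genes marked in WT only and in PRC1ctrl only stayed within 1.5 times of 1732 and 345. At equal covered length, with 30663 WT peaks kept, they were 1034 and 1131, and by mean signal, an alternative added after seeing the data, 1080 and 839; here fewer WT peaks entered by construction. Shared WT and PRC1ctrl peaks were 63.2% and 79.4% with 50% overlap, 96.1% and 57.8% at equal length, 89.4% and 64.7% by mean signal and 79.4% and 85.3% for the upper 75%. H2AK119ub at WT-only genes was 65.6% with gene bodies, 60.6% at equal length, 61.2% by mean signal and 56.4% for the upper 75%. At PRC1ctrl-only genes it was 29.2% (wider windows), 38.1%, 36.5%, 32.1% and 29.1% in that order. At genes marked in both it was 85.5% (wider windows), 80.7% (500 bp), 89.0% (bodies), 79.5% (starts), 86.6% (equal length), 85.2% (mean signal) and 85.0% (upper 75%). PRC1 subunits in WT only were 5 from starts and 6 at equal length. The net number of marked genes, PRC1ctrl minus WT, turned from negative to positive in some lists. It was 1 for type 1 vomeronasal receptors with 500 bp and, from starts, 1 each for spermatogenesis, canonical imprinted genes and type 1 vomeronasal receptors. At equal length it was 59 for olfactory receptors, 13 for Zfp genes, 12 for protocadherins, 5 for neuronal channels, 5 for type 2 vomeronasal receptors and 3 for beta-defensins. It was 2 each for spermatogenesis, early zygotic genes and type 1 vomeronasal receptors, and 1 for Rhox. By mean signal it was 36 for olfactory receptors, 7 for Zfp genes, 3 for type 2 vomeronasal receptors, 2 for developmental signalling, and 1 each for oocyte transcription factors and beta-defensins. The cause of each change was not tested beyond the fewer peaks. No alternative could reverse a named call, since each kept the peak behind it or added none in the other genotype. Of 35 named calls, 16 ended with wider windows and 7 with gene bodies, where both genotypes then counted as marked. Calls also ended at 6 genes with 500 bp, 4 at equal length and 7 by mean signal (Neurog3, Isl2, Amh, Tpm2, Cbx2, Rybp and Yaf2). They ended at 3 for the upper 75% (Dcaf7, Grb10 and Hbb-bt) and, of 28 examined, at 1 from starts (Gm40892). In all these cases neither genotype counted as marked. Apart from the Polycomb genes, the named genes were chosen for keeping the call at equal length, so only Polycomb calls could end there. Read depth and the height at which each list starts limit every count.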
